A study of Mus musculus with 96 samples.

Results

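The Fc gamma receptors bind the constant part of immunoglobulin G (IgG) and are the means by which microglia and other phagocytes read antibody. The genes described here were chosen by name: the receptors Fcgr1, Fcgr2b, Fcgr3 and Fcgr4, the signalling chain Fcer1g and the neonatal Fc receptor Fcgrt, together 6 of the 22709 genes in the deposited table, and all 6 had a row there. The table holds bulk mRNA-seq of mouse hippocampus and prefrontal cortex in 96 libraries, 48 of each tissue. Animals from pregnancies with maternal immune activation (MIA) or with saline (Sal) were studied with PLX5622, an inhibitor of the colony-stimulating factor 1 receptor (PLX), or without it (control, CTRL), in females (F) and males (M). The series title names a sex-specific correction by the inhibitor, and its design text speaks of injections meant to renew the microglia.

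Each tissue had 8 groups: MIA with PLX, MIA control, saline with PLX and saline control, in females and in males. Each group had 6 libraries, except MIA control females with 7 and MIA control males with 5. The sources used here do not give the age or strain of the animals, the litters, the agent of immune activation, what the control animals received, or the dose and timing of PLX. The p-values therefore measure the spread between libraries, and those for MIA take libraries as independent although littermates share the maternal exposure. These were whole tissue pieces, so fewer cells of a type and less RNA per cell cannot be told apart. The libraries held 22.23 to 26.69 M reads in hippocampus and 22.75 to 25.93 M in prefrontal cortex. Of 10 microglial markers, all 10 were present, and their summed level had a median of 8377 normalised reads in PLX hippocampus and 9026 in control hippocampus, and of 8743 in PLX prefrontal cortex and 9561 in control prefrontal cortex. Of 6 T and NK cell markers, none had a row in the table, and of 6 neutrophil markers 1 had.

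Activating receptors signal through an immunoreceptor tyrosine-based activation motif (ITAM). In the mouse, Fcgr1, Fcgr3 and Fcgr4 carry no such motif of their own and depend on the common gamma chain, the product of Fcer1g, which recruits the kinase Syk. Fcgr2b is the inhibitory receptor: its cytoplasmic tail carries an inhibitory motif (ITIM) that recruits the phosphatase SHIP-1. Fcgrt is unlike the others: with beta-2-microglobulin it forms FcRn, which binds IgG at acid pH in endosomes and returns it to the cell surface. The balance of activating over inhibitory receptors sets the threshold at which immune complexes trigger phagocytosis.

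A set of libraries stood apart from the rest in both tissues and touches most results below. They were set apart by clustering of the share of reads on 165 ribosomal protein and oxidative phosphorylation genes, so the ranges cannot overlap. The share was 1.292 to 1.479% in 14 hippocampal libraries against 0.92 to 1.142% in the other 34, and 1.21 to 1.442% in 16 prefrontal libraries against 0.888 to 1.095% in the other 32. The lowest prefrontal libraries of the higher set, MIA control female 3 (1.2098%) and saline control male 2 (1.22%), were not in the set in hippocampus. Of the libraries that stand apart, 2 were PLX and 12 control in hippocampus, and 2 were PLX and 14 control in prefrontal cortex, so that this state is largely confounded with the inhibitor. The averaged PLX differences are therefore given as designed, with a model term that marks these libraries (the library term), and without them, except for hippocampal Fcgr4, which lay below the filter, and for the difference between tissues, which was fitted with the term only.

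The promoters of the 3 activating receptors are shown because Fcgr4 was the gene whose level changed most, while Fcgr1 and Fcgr3, which use the same signalling chain, serve as its comparison. Sequences are from RefSeq on build GRCm38.p6 and end at the base before the transcription start, and RefSeq windows were found for 6 of 6 genes, with a pair of start sites for Fcgr3, of which the upstream one is printed. Capitals mark 3 motifs searched on both strands: the core GAGGAA bound by PU.1, a factor of the myeloid lineage, the interferon-gamma activated site TTCNNNGAA, and the core of the interferon-stimulated response element, a pair of GAAA runs with 2 bases between them. On the other strand the PU.1 core reads TTCCTC.
Fcgr4, chr1:171018776-171018925, plus strand: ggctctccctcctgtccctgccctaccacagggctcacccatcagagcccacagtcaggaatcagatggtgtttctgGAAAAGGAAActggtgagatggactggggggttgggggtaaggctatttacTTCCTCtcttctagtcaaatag
Fcgr3, chr1:171059404-171059553, minus strand: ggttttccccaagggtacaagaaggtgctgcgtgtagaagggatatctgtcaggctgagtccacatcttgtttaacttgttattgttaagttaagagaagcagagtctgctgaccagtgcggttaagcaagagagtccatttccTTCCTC
Fcgr1, chr3:96293970-96294119, minus strand: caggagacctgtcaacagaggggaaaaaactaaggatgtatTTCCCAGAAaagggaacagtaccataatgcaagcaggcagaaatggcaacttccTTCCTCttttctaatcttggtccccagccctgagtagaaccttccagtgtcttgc
The PU.1 core, with its letters on the reverse strand, began 22 bases before the start of Fcgr4, 6 bases before that of Fcgr3 and 55 bases before that of Fcgr1. The interferon-gamma activated site was matched in Fcgr1, 109 bases before the start, and the response element core in Fcgr4, 73 bases before the start. None of the 3 motifs was matched in the windows of Fcgr2b, Fcer1g and Fcgrt. Among 32851 promoter windows of the same 300 bases, 28.3% held the PU.1 core, 8.3% the activated site and 3.4% the response element core. These are matches of letters and not measured binding.

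Per kilobase of annotated exon, Fcgrt was the most abundant of the 6 genes in both tissues and Fcgr4 the least. Median levels in PLX and control hippocampus were 180.0 and 209.2 normalised reads per kb for Fcgrt, 142.5 and 147.2 for Fcgr3, and 121.7 and 141.1 for Fcer1g. They were 22.55 and 24.72 for Fcgr1, 12.92 and 11.07 for Fcgr2b, and 3.226 and 1.621 for Fcgr4. The order of the medians was the same in prefrontal cortex, where Fcgrt had 172.3 and 194.5, Fcgr3 156.0 and 159.4, Fcer1g 124.1 and 136.5, Fcgr1 26.3 and 28.93, Fcgr2b 18 and 16.16, and Fcgr4 7.41 and 2.42 normalised reads per kb in PLX and control libraries. The ranges of Fcgrt, Fcgr3 and Fcer1g overlapped, so that these neighbours did not separate beyond their spread, whereas every library's Fcer1g level lay above every library's Fcgr1 level. Fcgr1 and Fcgr2b overlapped in all but the PLX hippocampal libraries. Their order depends on the length used. Without division by length, Fcgr2b had the higher median, 69.33 normalised reads against 60.3 for Fcgr1 in hippocampus, and 96.44 against 70.17 in prefrontal cortex. Fcgr4 lay below every Fcgr2b level of its own tissue and treatment except in PLX prefrontal cortex, where its highest library, at 12.03, passed the lowest for Fcgr2b, at 10.49.

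**Figure D1:**
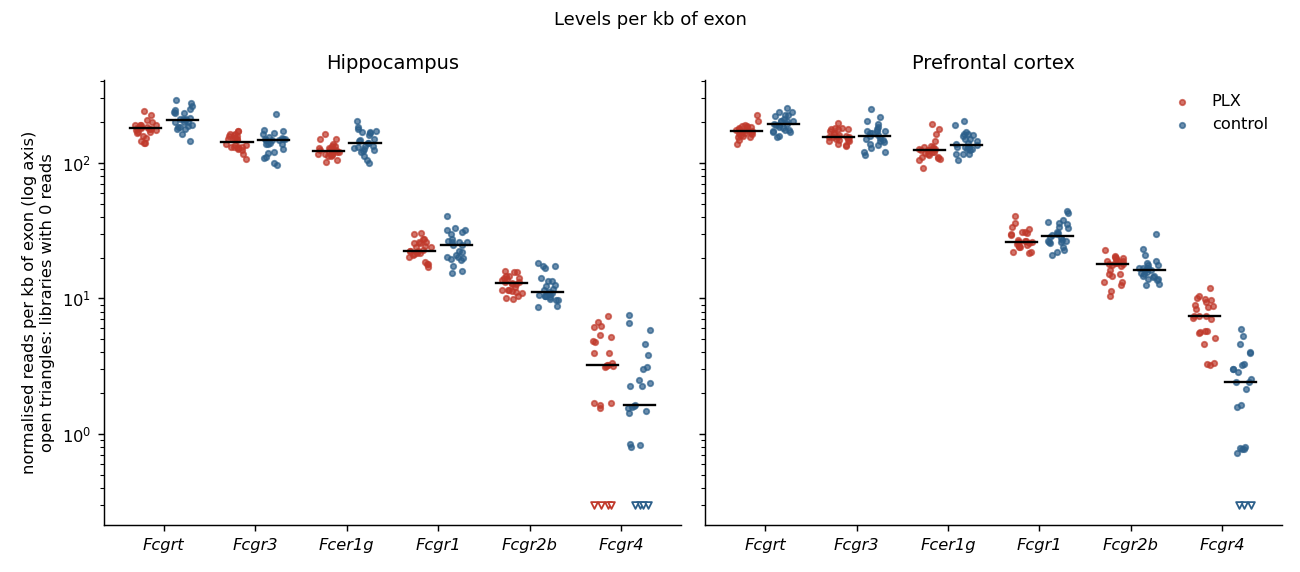
Normalised reads per kb of exon (log axis) for the 6 genes in hippocampus (left) and prefrontal cortex (right), with PLX libraries in red left of control libraries in blue; bars are medians and open triangles are libraries with 0 reads, which a log axis cannot place. Fcgr4 in prefrontal cortex is the gene whose PLX and control points separate most, with medians of 7.41 and 2.42.

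The comparison of PLX with control asked how the inhibitor changed each tissue. Fcgr4, which binds the mouse IgG2 subclasses and is found on monocytes, neutrophils and macrophages, rose 2.99-fold in prefrontal cortex on the scale of log2(signal + 1). No other member rose in either tissue. The signalling chain Fcer1g and the IgG salvage receptor Fcgrt were lower under PLX in both tissues by small amounts, and these differences passed the test only where the libraries that stand apart were left unmodelled. Fcgr1, Fcgr3 and the inhibitory Fcgr2b did not pass the test in any of the 3 fits. The test was limma across all tested genes with Benjamini-Hochberg adjustment, averaged over sex and prenatal treatment.

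Fcgr4 in prefrontal cortex had 4.03, 9.31 and 15.1 normalised reads as lowest, median and highest of the 24 PLX libraries, against 0, 3.04 and 7.46 in the 24 control libraries. These levels rest on few reads, 218 in all over the PLX libraries and 72 over the control libraries. No PLX library was at 0, while 3 control libraries were, and the ranges overlapped between the lowest PLX and the highest control libraries. The difference was 1.58 on the log2 scale (SE 0.214, 95% interval 1.15 to 2.01, adjusted p = 8.14e-06), which placed Fcgr4 at rank 7 of 19841 tested genes by p. The pseudocount of 1 makes this scale understate changes of genes with so few reads, and the size depends on it: with a pseudocount of 5 the difference was 0.87 (1.82-fold, adjusted p = 5.21e-07) and with 0.5 it was 1.83 (3.54-fold, adjusted p = 3.03e-05).

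The rise of Fcgr4 was also called with the libraries that stand apart modelled or left out. With the library term it was 1.70 (SE 0.256, adjusted p = 7.17e-05), a 3.26-fold difference, and without them 1.85 (SE 0.3, adjusted p = 0.00214), a 3.61-fold difference. Among libraries outside that state, levels ran from 4.03 to 15.1 in 22 PLX libraries and from 0 to 5.03 in 10 control libraries, which overlap between 4.03 and 5.03. On whole reads, edgeR gave an adjusted p of 4.99e-06 and DESeq2 1.88e-09. Fcgr4 entered the test through PLX libraries alone, since 10 of the 24 PLX libraries and 0 of the 24 control libraries reached the 10 normalised reads that the filter asked of at least 5 libraries. Without any filter the difference was again 1.58 (adjusted p = 6.56e-06).

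Within sex and prenatal treatment, Fcgr4 in prefrontal cortex was higher under PLX in each of the 4 pairs of groups. In MIA females the lowest, median and highest levels were 4.13, 10.2 and 12.6 under PLX and 0, 3.61 and 7.46 in controls, and these ranges overlapped. In saline females they were 7.21, 9.36 and 15.1 under PLX and 0, 4.55 and 6.62 in controls, without overlap. MIA males had 4.03, 7.15 and 12.5 under PLX, and the 5 MIA control males had 3.04, 0.965, 0, 0.980 and 3.04. Saline males had 4.21, 8.65 and 13.2 under PLX and 0.976, 2.96 and 3.78 in controls. Neither pair of male groups overlapped.

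The log2 differences of Fcgr4 were 1.44 in MIA females (adjusted p = 0.334), 1.52 in saline females (adjusted p = 0.273), 1.91 in MIA males (adjusted p = 0.141) and 1.44 in saline males (adjusted p = 0.069). None passed the threshold over all genes, and few genes did in these smaller comparisons, 0.0252% in MIA females, 0.0252% in saline females, 0.0202% in MIA males and 0.338% in saline males. Leaving out single libraries moved the adjusted p of the male comparisons across the threshold. The adjusted p was 0.0463 without MIA control male 2 and 0.0466 without MIA control male 5, and it was 0.0394 without saline control male 6 and 0.031 without saline PLX male 5. The unadjusted limma p of Fcgr4 went from 9.86e-05 to 5.51e-05 and 0.000363 in MIA males. In saline males it went from 0.00152 to 0.00581 and 0.00151. Thus it rose without MIA control male 5 and without saline control male 6. The adjusted p also depends on the p-values of all other tested genes. Over the 6 genes in these 4 comparisons, 0 of 24 tests passed in prefrontal cortex by limma or edgeR. DESeq2 called none either, but it gave no adjusted p for Fcgr4 in MIA males (unadjusted p = 0.00011) and saline males (unadjusted p = 0.000259). For Fcgr4 those male comparisons were therefore left undecided by DESeq2. By each tool 7 tests had an unadjusted p under 0.05, 4 of these for Fcgr4, where 7.59 to 27.8% of all genes did by limma. In hippocampus 0 of 20 tests passed and 4 had an unadjusted p under 0.05 by each tool, for Fcgrt in 3 of them and Fcer1g in 1, where 7.71 to 28.2% of all genes did by limma. Of all genes 0.00502% passed in MIA females and in MIA males, 0.0301% in saline females and 0.0251% in saline males.

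**Figure D2:**
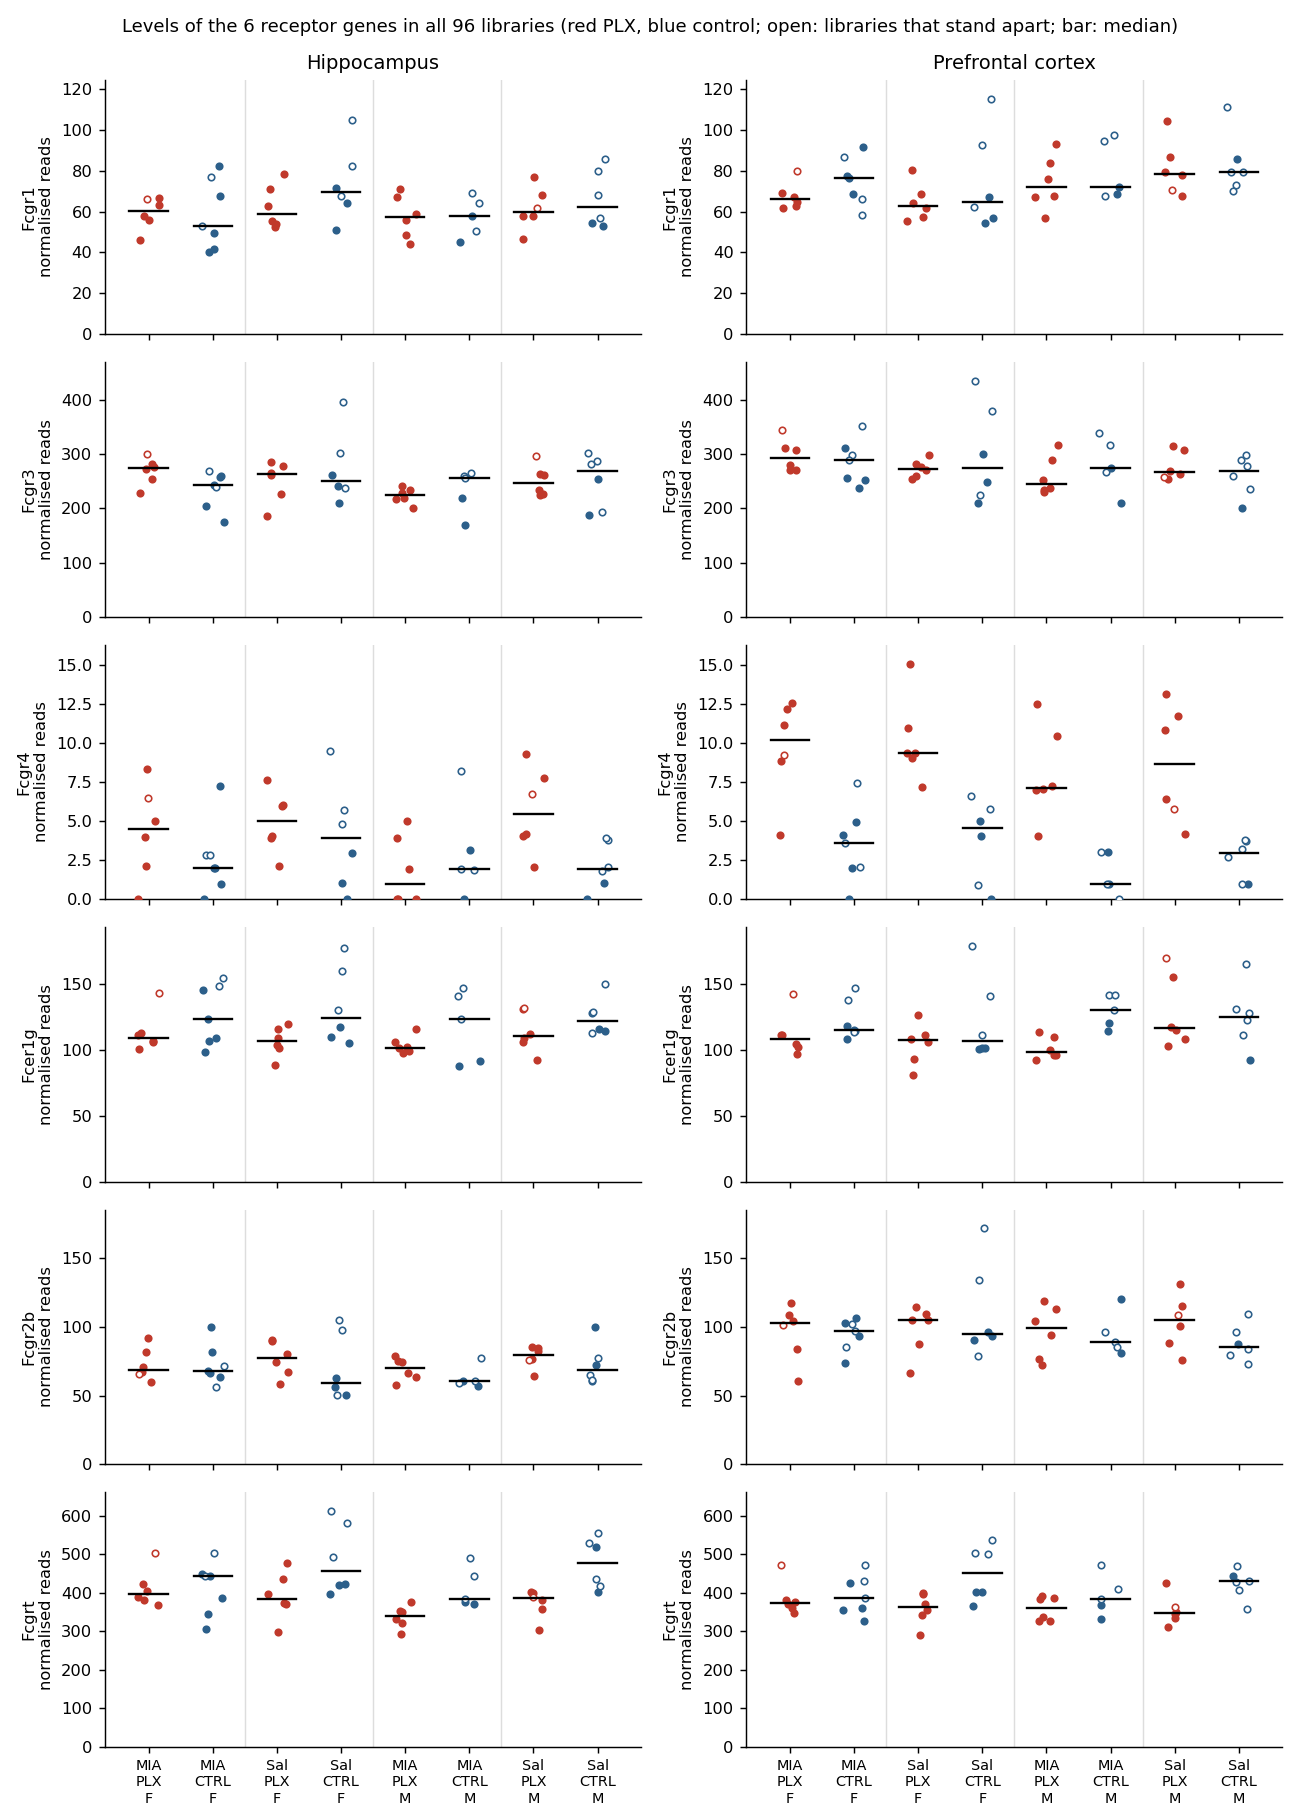
Normalised reads of the 6 genes (rows) in every library of hippocampus (left) and prefrontal cortex (right), by prenatal treatment, inhibitor and sex; red points are PLX, blue points control, open points are libraries that stand apart and bars are group medians. In prefrontal cortex the PLX groups of Fcgr4 have medians of 7.15 to 10.2 and the control groups of 0.98 to 4.55.

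Hippocampal Fcgr4 was lower and its groups were not separated. It had 0, 4.05 and 9.34 normalised reads as lowest, median and highest of the PLX libraries (101 reads in all), against 0, 2.04 and 9.53 in control libraries (72 reads in all), with 4 libraries at 0 on each side. Outside the libraries that stand apart, the median was 4.015 in 22 PLX libraries and 1.047 in 12 controls. Their ranges overlapped, from 0 to 9.34 and from 0 to 7.288. The 12 controls that stand apart had a median of 3.303 and held 52 of the 72 control reads. The difference outside that state was not tested. No library reached 10, so the gene was not tested as designed. Without the filter, the log2 difference was 0.42 (95% interval -0.146 to 0.983, adjusted p = 0.249), and edgeR gave 0.42 (adjusted p = 0.355). By group it was 0.53 in MIA females, 0.55 in saline females, -0.59 in MIA males and 1.18 in saline males.

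The PLX difference of Fcgr4 was smaller in hippocampus than in prefrontal cortex by 1.16 on the log2 scale (hippocampus minus prefrontal cortex -1.16, 95% interval -1.7 to -0.615), but this did not pass the threshold (adjusted p = 0.0911), as 0.0485% of 20620 genes did. With the term for libraries that stand apart it was -0.80 (adjusted p = 0.43). The value crossed the threshold with a pseudocount of 5, at -0.65 (adjusted p = 0.0126), without hippocampal MIA control male 5 (-1.26, adjusted p = 0.0354) and without hippocampal saline control female 2 (-1.21, adjusted p = 0.0422). The other 5 genes had tissue differences of the PLX effect between -0.05 and 0.09, each with an adjusted p of at least 0.985.

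Fcgr1, the high-affinity receptor that binds single IgG molecules, had 43.9, 58.4 and 78.5 normalised reads as lowest, median and highest of the PLX hippocampal libraries, against 40.2, 64.0 and 105 in controls. In prefrontal cortex it had 55.6, 68.1 and 104 under PLX and 54.3, 74.9 and 115 in controls. The groups overlapped across nearly their whole ranges. The log2 difference was -0.06 in hippocampus (95% interval -0.233 to 0.105, adjusted p = 0.562) and -0.11 in prefrontal cortex (95% interval -0.259 to 0.0363, adjusted p = 0.229). With the library term it was 0.06 in hippocampus and -0.05 in prefrontal cortex. With those libraries left out it was 0.10 and -0.04. Controls that stand apart had median Fcgr1 levels of 68.4 in hippocampus and 79.2 in prefrontal cortex, against 53.5 and 70.2 in the other controls.

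Fcgr3, the low-affinity activating receptor with the highest level of the 4 receptors, had 186, 247 and 299.9 normalised reads under PLX and 169, 256 and 397 in control hippocampus. In prefrontal cortex it had 230.0, 271 and 344 under PLX and 200.3, 277 and 435 in controls. PLX libraries lay inside the range of the controls in both tissues. The log2 difference was 0.01 in hippocampus (95% interval -0.117 to 0.144, adjusted p = 0.884) and -0.01 in prefrontal cortex (95% interval -0.134 to 0.124, adjusted p = 0.958). With the library term it was 0.14 in both tissues, and without the libraries that stand apart 0.16 in hippocampus and 0.21 in prefrontal cortex, with adjusted p values of 0.383 and 0.138. Controls that stand apart had a median Fcgr3 level of 266.8 in hippocampus, against 230.3 in the other controls, and a higher median in prefrontal cortex too.

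Fcer1g, the common gamma chain, had 88.7, 106 and 143 normalised reads as lowest, median and highest of the PLX hippocampal libraries, against 87.7, 123 and 177 in controls. In prefrontal cortex it had 80.6, 108 and 169.7 under PLX and 92.6, 119 and 179 in controls. The ranges overlapped and the medians were lower under PLX. The log2 difference was -0.19 in hippocampus (SE 0.0642, adjusted p = 0.0194) and -0.17 in prefrontal cortex (SE 0.0663, adjusted p = 0.0433). These became -0.02 (adjusted p = 0.903) and 0.02 (adjusted p = 0.942) under the library term, and -0.0084 (adjusted p = 0.972) and 0.013 (adjusted p = 0.959) with those libraries left out.

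Among control libraries, those that stand apart had a median Fcer1g level of 143.8 in hippocampus and 134.6 in prefrontal cortex, against 109.7 and 111.5 in the other controls. PLX libraries outside that state had medians of 106.0 and 107.2, close to those other controls. The prefrontal call was also lost whenever any of 24 of the 48 libraries was left out, with adjusted p between 0.0181 and 0.0784 over the 48 fits. These were replicates 2 and 4 of MIA control females, 3, 4 and 6 of MIA control males, 1, 3, 4 and 5 of MIA PLX females, 1, 2, 4 and 5 of MIA PLX males, 5 and 6 of saline control females, 3, 4 and 5 of saline control males, 2 and 5 of saline PLX females, and 1, 2, 3 and 6 of saline PLX males.

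Fcgr2b, the inhibitory receptor, had 57.5, 74.8 and 91.7 normalised reads under PLX and 50.2, 64.1 and 105 in control hippocampus. In prefrontal cortex it had 60.8, 104 and 131 under PLX and 73.2, 93.5 and 172 in controls. The groups overlapped in both tissues, and its level did not follow the libraries that stand apart, since control medians in and outside that state were 63.2 and 65.0 in hippocampus and 92.6 and 93.5 in prefrontal cortex. The log2 difference was 0.11 in hippocampus (95% interval -0.0437 to 0.265, adjusted p = 0.251) and 0.02 in prefrontal cortex (95% interval -0.14 to 0.189, adjusted p = 0.84). It was 0.11 and 0.07 with the library term, and 0.13 and 0.04 with those libraries left out. Over 75-base windows of their annotated transcripts, 94 were shared between Fcgr2b and Fcgr3, which is 1.63% of the windows of Fcgr2b and 5.42% of those of Fcgr3, so reads from these stretches could have been counted for either gene. In all, 313 windows of Fcgr2b (5.43%) occurred in some other gene, with 123 in Cplx2 and 116 in Gm47409, more than in Fcgr3. The other 4 members shared no such window with any gene. Fcgr2b also overlaps Gm38204 on the opposite strand over 155 exon bases, and the sources used here do not say whether the authors' counting used strand.

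Fcgrt had 294, 379 and 504 normalised reads as lowest, median and highest of the PLX hippocampal libraries, against 307, 439.8 and 613 in controls. In prefrontal cortex it had 290.1, 362 and 472 under PLX and 326, 409 and 539 in controls. Medians were lower under PLX, with overlap. The log2 difference was -0.23 in hippocampus (SE 0.0572, adjusted p = 0.00215) and -0.18 in prefrontal cortex (SE 0.0491, adjusted p = 0.00423). With the library term it was -0.12 (adjusted p = 0.285) and -0.07 (adjusted p = 0.64), and without those libraries -0.13 (adjusted p = 0.46) and -0.11 (adjusted p = 0.427). Controls that stand apart had median Fcgrt levels of 492.8 in hippocampus and 430.9 in prefrontal cortex, against 400.2 and 366.7 in the other controls.

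Counted together, 2 of the 5 members tested in hippocampus and 3 of the 6 tested in prefrontal cortex passed as designed, where 40.0% and 37.8% of all tested genes did, so the members' share was near that of any gene. All of the hippocampal calls and 2 of the 3 prefrontal calls were toward lower levels, where 19.2% and 18.1% of all genes were called lower, and the 1 prefrontal call toward a higher level was Fcgr4, where 19.7% were called higher. Under the library term 0 of 5 members passed in hippocampus, where 0.376% of all genes did, and 1 of 6 in prefrontal cortex, where 0.242% did. Without the libraries that stand apart the counts were again 0 and 1, against 0.0451% and 0.312% of all genes. In the designed comparison edgeR and DESeq2 called the same members as limma.

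**Figure D3:**
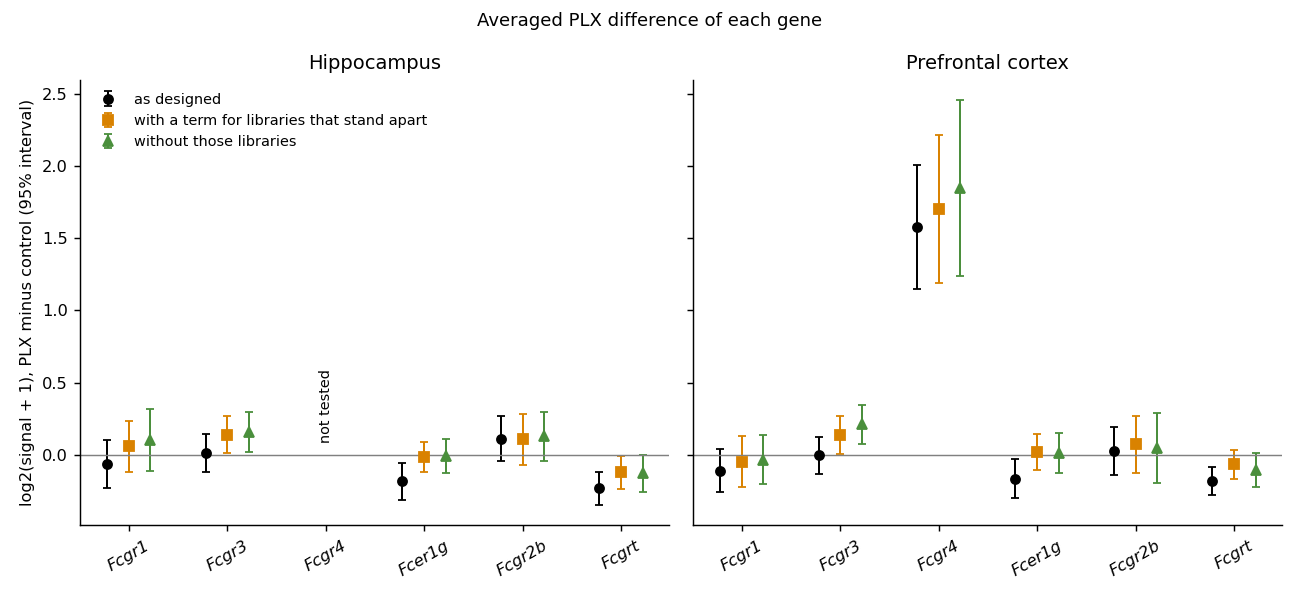
Averaged PLX minus control difference of each gene on the log2(signal + 1) scale with its 95% interval, in hippocampus (left) and prefrontal cortex (right), as designed (black circles), with the library term (orange squares) and without those libraries (green triangles). Fcgr4 in prefrontal cortex keeps 1.58, 1.70 and 1.85 in the 3 fits, while the negative values of Fcer1g move to between -0.02 and 0.02.

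**Figure D4:**
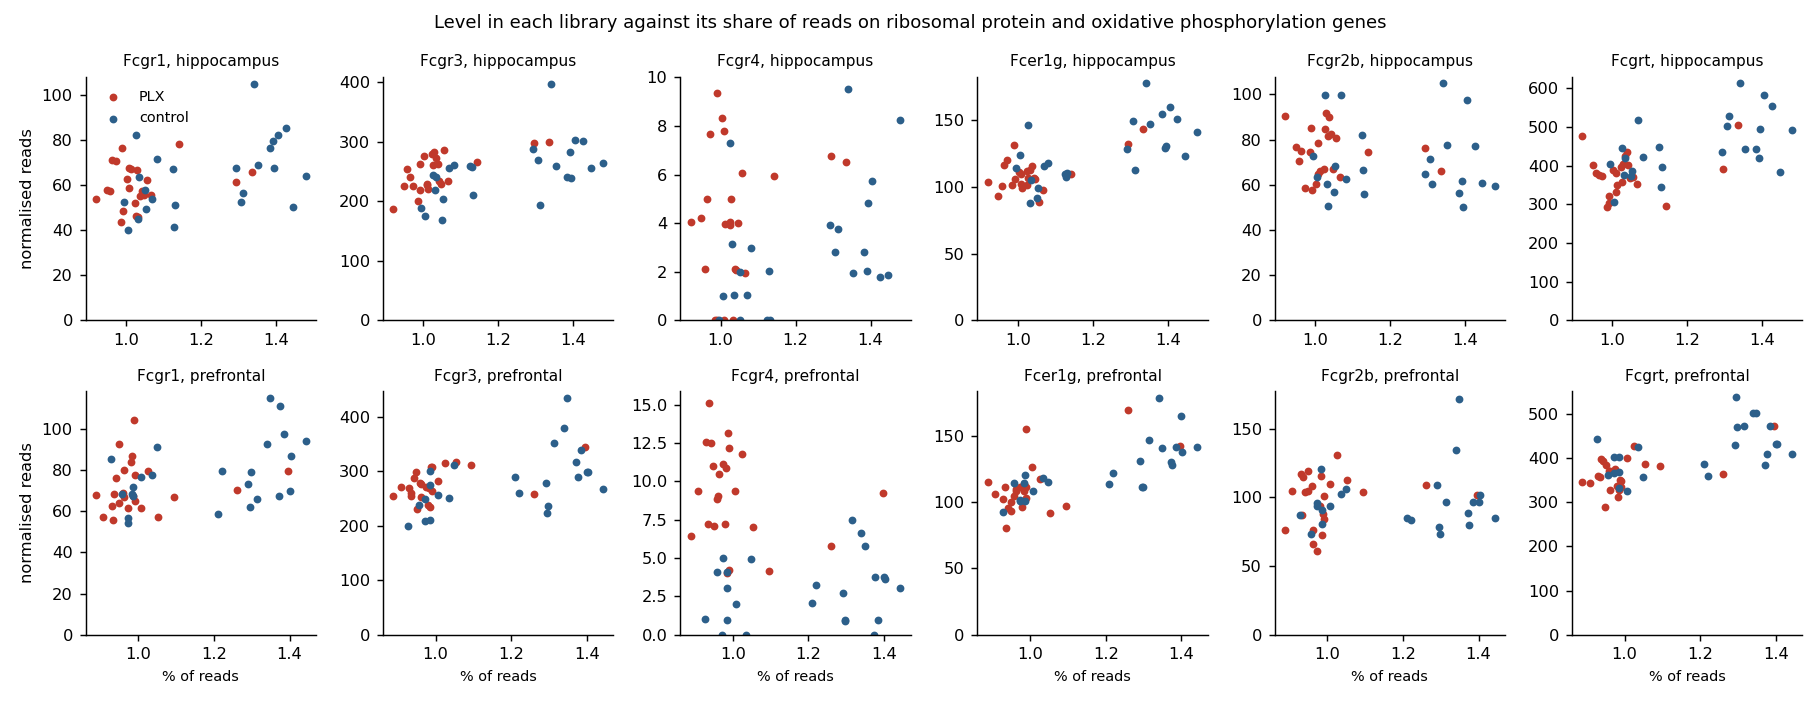
Normalised reads of each gene against the share of reads on ribosomal protein and oxidative phosphorylation genes (%) in each library of hippocampus (top) and prefrontal cortex (bottom), PLX in red and control in blue. Libraries were split by clustering of that share. In the higher range the control medians of all genes but Fcgr2b are higher in both tissues, as for Fcer1g in hippocampus with 143.8 against 109.7.

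The balance of receptors was described per kb of exon, as ratios within each library and with no test. The lengths cover all annotated exons of a gene, 5.79 kb for Fcgr2b, 2.589 kb for Fcgr1 and 1.736 kb for Fcgr3. The size of a ratio therefore depends on these lengths, which need not be those of the transcripts present. The medians are over all libraries, those that stand apart included. The ratio of Fcgr4 to Fcgr2b had a median of 0.412 under PLX and 0.159 in controls in prefrontal cortex, and 0.262 under PLX and 0.148 in controls in hippocampus. The ratio of Fcgr3 to Fcgr2b was 9.28 under PLX and 10.03 in controls in prefrontal cortex, and 11.3 and 12.5 in hippocampus, and that of Fcgr1 to Fcgr2b was 1.66 and 1.73 in prefrontal cortex and 1.82 and 2.01 in hippocampus. Thus over all libraries the median ratio to the inhibitory receptor was higher under PLX for Fcgr4 and slightly lower for Fcgr3 and Fcgr1. Controls that stand apart had higher Fcgr3 medians than the other controls in both tissues, but not higher Fcgr2b medians. With the libraries that stand apart modelled or left out, the log2 PLX difference of Fcgr3 lay above that of Fcgr2b in both tissues. That of Fcgr1 lay below that of Fcgr2b. The ratios were not computed without those libraries, and whether the lower ratio of Fcgr3 reflects them was not tested. The gamma chain relative to the sum of Fcgr1, Fcgr3 and Fcgr4 had a median of 0.633 under PLX and 0.744 in controls in prefrontal cortex, and of 0.755 and 0.852 in hippocampus.

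MIA was compared with saline to ask whether the prenatal exposure left a trace in these genes. No member passed in either tissue, and neither did any other gene: 0 of 5 members and 0% of all genes in hippocampus, and 0 of 6 members and 0% of all genes in prefrontal cortex by limma. In hippocampus Fcgr1 had 40.2, 57.9 and 82.3 normalised reads as lowest, median and highest in MIA libraries and 46.4, 63.2 and 105 in saline libraries. Its log2 difference was -0.17 (95% interval -0.342 to -0.00423, adjusted p = 1). Fcgrt had 294, 382 and 504 in MIA libraries and 297, 411 and 613 in saline libraries, a log2 difference of -0.13 (95% interval -0.242 to -0.0119, adjusted p = 0.997). These 2 of 5 members had an unadjusted p under 0.05 by limma, edgeR and DESeq2 alike, where 4.76% of all genes did by limma. With the library term limma gave such a p for Fcgrt alone, and for 7.03% of all genes. Without the libraries that stand apart it gave one for 0 of 5 members and 2.71% of all genes. In prefrontal cortex 0 of 6 had one by any of the 3 tools, where 5.96% of all genes did by limma, and the differences ran from -0.18 for Fcgr4 (95% interval -0.614 to 0.248) to 0.02 for Fcgr3.

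Within sex and inhibitor level, 0 of 20 tests passed in hippocampus and 0 of 24 in prefrontal cortex for MIA against saline, where 0.00502% of all genes did in hippocampus of control females and 0% in the other 7 comparisons. An unadjusted p under 0.05 was found for 2 tests in each tissue, with all 3 tools, where 2.38 to 6.41% of all genes had one in hippocampus and 2.56 to 5.35% in prefrontal cortex by limma. In hippocampus these were Fcgr1 (-0.34, adjusted p = 0.767) and Fcgrt (-0.24, adjusted p = 0.767) in control females, and in prefrontal cortex Fcgrt in control females (-0.19, adjusted p = 0.991) and Fcer1g in PLX males (-0.32, adjusted p = 1). With the library term limma gave such a p for 0 tests in hippocampus and 2 in prefrontal cortex. Of all genes 3.27 to 7.3% and 5.99 to 7.72% had one. Without the libraries that stand apart it was 3 tests in each tissue, and 2.38 to 5.34% and 5.33 to 5.74% of all genes. Hippocampal Fcgr4, below the filter, had 0, 0.978 and 5.01 normalised reads in MIA PLX males (11 reads in all, 3 of 6 libraries at 0). In saline PLX males it had 2.06, 5.48 and 9.34 (33 reads in all). Its log2 difference without the filter was -1.56 (95% interval -2.68 to -0.43, adjusted p = 1).

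The interaction of MIA and PLX asked whether the inhibitor acted differently after MIA. It passed for 0 of 10 tests in hippocampus and 0 of 12 in prefrontal cortex, as for 0% of all genes. The unadjusted p was under 0.05 for 1 and 2 tests by limma, 0 and 2 by edgeR, and 1 and 1 by DESeq2, where 2.13 to 2.86% of all genes had one in hippocampus and 3.08 to 4.02% in prefrontal cortex by limma. Fcgrt in females had positive interactions of 0.32 in hippocampus (adjusted p = 0.933) and 0.29 in prefrontal cortex (adjusted p = 0.87). Its hippocampal median was 396 under PLX and 444 in controls after MIA, and 385 under PLX and 458 in controls after saline. For prefrontal Fcgr4 the interaction was -0.09 in females and 0.47 in males, with adjusted p values of 0.975 and 0.999.

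No member was called between females and males, with 0 of 5 called in hippocampus, where 0.246% of all genes were, and 0 of 6 in prefrontal cortex, where 0.141% were. In prefrontal cortex Fcgr1 had 54.3, 67.1 and 115 normalised reads in females and 57.0, 77.8 and 111 in males, a log2 difference of -0.18 (95% interval -0.326 to -0.03, adjusted p = 0.714). Prefrontal Fcgr4 had a median of 6.62 in females and 4.03 in males, with a log2 difference of 0.35 (95% interval -0.0794 to 0.783, adjusted p = 0.886). The unadjusted p was under 0.05 for 0 hippocampal and 1 prefrontal member by limma, and for 0 and 2 by edgeR and by DESeq2, where 7.85 and 6.05% of all genes were by limma. With the library term, limma gave such a p for 3 of 5 in hippocampus (Fcgr3, Fcer1g and Fcgrt) and 2 of 6 in prefrontal cortex (Fcgr1 and Fcgr3), none of them called. Of all genes 11.9 and 8.14% had one. Without the libraries that stand apart it was 1 and 2 members, and 6.79 and 6.75% of all genes. The PLX effect of Fcgr4 in prefrontal cortex differed between females and males by -0.20 (95% interval -1.06 to 0.666, adjusted p = 0.909), an interval too wide to exclude a difference in either direction. For the sex difference of the PLX effect, 0 of 5 and 0 of 6 members passed, and 0 had an unadjusted p under 0.05 by limma, edgeR or DESeq2. Of all genes 0% passed, and 4.94 and 4.54% had such an unadjusted p by limma.

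Between tissues, averaged over all groups, 4 receptors had lower levels in hippocampus than in prefrontal cortex. Values had been scaled within each tissue, so these differences are relative to the bulk of genes in each. The log2 difference was -0.28 for Fcgr1 (adjusted p = 2.69e-08), -0.43 for Fcgr2b (adjusted p = 3.66e-15), -0.17 for Fcgr3 (adjusted p = 8.11e-06) and -0.61 for Fcgr4 (adjusted p = 4.67e-05), in a fit of all 96 libraries with the sample label as a block. Fcgr2b had a median of 69.3 normalised reads in hippocampus and 96.4 in prefrontal cortex. For Fcgr4 the control libraries had means of 2.91 in hippocampus and 2.918 in prefrontal cortex, and medians of 2.036 and 3.04. Its PLX libraries had means of 4.203 and 9.154, so its averaged tissue difference lay mostly in the PLX libraries. Fcgr4 entered this test through 10 prefrontal PLX libraries alone. Fcgrt was slightly higher in hippocampus, by 0.07 (adjusted p = 0.0228), a call that was lost without the block (adjusted p = 0.0802). Fcer1g had medians of 112.2 and 112.7 and a difference of -0.01 (95% interval -0.0755 to 0.065, adjusted p = 0.9). Thus 5 of 6 members were called, where 72.8% of all tested genes were: 4 lower in hippocampus, as 33.6% of genes were, and 1 higher, as 39.2% were.

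Libraries that bore the same sample label in both tissues tended to deviate together. As deviations from group means over 48 labels, Pearson's r between hippocampus and prefrontal cortex was 0.663 for Fcgr3, 0.548 for Fcgr4, 0.536 for Fcer1g, 0.471 for Fcgr1, 0.449 for Fcgr2b and 0.384 for Fcgrt. These values are a description, and labels that stand apart did so in both tissues in 14 cases. Within a tissue, the receptors' deviations were most alike for Fcgr3 and Fcer1g, with r of 0.587 in hippocampus and 0.548 in prefrontal cortex, while Fcgr2b and Fcgr4 had 0.064 and 0.186.

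Over the 15001 other genes that were tested in both tissues and have no predicted gene name (15002 for Fcgr4), those most like each member were named by the mean of the 2 tissues' correlations over 48 libraries each. For Fcgr3 these were Ctss (mean r 0.804), Tmem119 (0.785), C1qb (0.771), Psat1 (0.766) and S100b (0.758). For Fcer1g they were S100a1 (0.77), Jpt1 (0.766), C1qb (0.751), Gstm1 (0.749) and Elp5 (0.746), and for Fcgr1 they were Selplg (0.658), Tmem119 (0.592), Lims2 (0.574), Ctss and B2m (both 0.568). For Fcgr2b they were Lhfp (0.531), Cav1 (0.522), Pacsin2 (0.519), F13a1 (0.517) and Adgrl4 (0.512). Fcgrt was most like Srgn (0.723), Tapbp (0.697), Ctsh and Rhoc (both 0.678) and Cd63-ps (0.672), and Fcgr4, whose reads are few, most like Hbs1l (0.577), Tspan5 (0.561), Anxa6 (0.523), Ly6a (0.522) and S100a6 (0.52). All of these share depth and library state with the member they are set beside.

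The rest of the pathway was followed in lists of genes from ligand to phagosome, by their averaged PLX difference. Of 15 IgG heavy and light chains, B-lineage genes and pentraxins, 5 had a row and 3 were tested in each tissue: none passed with the library term. As designed, 2 of the 3 fell in hippocampus, Ighd (-0.865, adjusted p = 0.001) and Ighm (-0.28, adjusted p = 0.0418). Of 15 other receptors that bind immunoglobulin or resemble those that do, 7 were tested, and with the library term 1 passed in each tissue and fell: Fcrls, a microglial Fc receptor-like gene, with a median of 400.2 normalised reads under PLX and 576 in controls in hippocampus (-0.37, adjusted p = 1.22e-05), and of 413 and 613 in prefrontal cortex (-0.47, adjusted p = 7.23e-08). None of the 4 tested partners of FcRn passed with the term, B2m among them, at 1535 and 1554 normalised reads in PLX and control hippocampus.

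Among adaptors with an ITAM and their partner receptors, 0 of 6 passed in hippocampus with the term, and in prefrontal cortex 1 of 8 rose and 1 of 8 fell. Clec7a, the beta-glucan receptor Dectin-1, rose in prefrontal cortex by 1.03 (adjusted p = 0.00924), with medians of 13.2 under PLX and 6.92 in controls; in hippocampus, with 13.3 and 7.57, it was 0.81 (adjusted p = 0.0601). Siglech, which signals through Tyrobp, fell in prefrontal cortex (-0.26, adjusted p = 0.00752). Of 33 kinases and effectors downstream of the ITAM, 0 passed with the term in either tissue, against 9 in hippocampus and 8 in prefrontal cortex as designed, where 40.0% and 37.8% of all genes passed. Of those designed calls, the guanine nucleotide exchange factors Sos1 (0.20 in hippocampus and 0.24 in prefrontal cortex) and Vav3 (0.22 and 0.19) were toward higher levels, and the small GTPase Rac2 (-0.27 and -0.36) and the actin regulator Coro1a (-0.26 and -0.25) toward lower levels, in both tissues.

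Of the inhibitors of Fc receptor signalling, 1 of 21 rose in hippocampus with the term, the adaptor Dok3 (0.55, adjusted p = 0.0317; medians of 276 under PLX and 196 in controls), and 0 of 23 passed in prefrontal cortex. Of 13 tested genes of the phagocyte oxidase and the phagosome, Ctss, the protease cathepsin S, passed in both tissues, rising by 0.27 in hippocampus (adjusted p = 0.0251) and by 0.25 in prefrontal cortex (adjusted p = 0.012). Ctss did not pass as designed, at 0.12 and 0.11. Of 14 genes in a list of the interferon-gamma pathway and other immune regulators, 0 passed in hippocampus and 1 rose in prefrontal cortex. That was the complement receptor C5ar1 (0.66, adjusted p = 0.0322), with medians of 29.99 under PLX and 18.76 in controls. Without the libraries that stand apart, Clec7a (adjusted p = 0.074 in prefrontal cortex), Dok3 (adjusted p = 0.184) and hippocampal Ctss (adjusted p = 0.0742) no longer passed, while prefrontal Ctss and C5ar1 did.

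Of 10 microglial markers, 0 rose and 2 fell in hippocampus with the term, P2ry12 (-0.24) and Cx3cr1 (-0.21), and 0 rose and 5 fell in prefrontal cortex: P2ry12 (-0.37), Gpr34 (-0.34), Cx3cr1 (-0.28), Siglech (-0.26) and Csf1r (-0.19), the receptor that PLX inhibits. Without the libraries that stand apart the 5 prefrontal markers still passed and the hippocampal ones did not, with adjusted p of 0.159 for P2ry12 and 0.179 for Cx3cr1. Tmem119 did not pass with the term, at -0.04 in both tissues. Of 8 border macrophage markers, Cd163, the haemoglobin scavenger receptor, fell in both tissues, with log2 differences of -1.45 in hippocampus and -0.72 in prefrontal cortex, and the others did not pass. Among the monocyte markers, 2 of 5 had a row, Ccr2 and Vcan, neither of which passed with the term. Ccr2 had medians of 12.1 under PLX and 9.43 in controls in prefrontal cortex, where Fcgr4 rose, and of 7.14 and 4.48 in hippocampus. The part of any of these cell types in the rise of Fcgr4 was not tested.

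**Figure D5:**
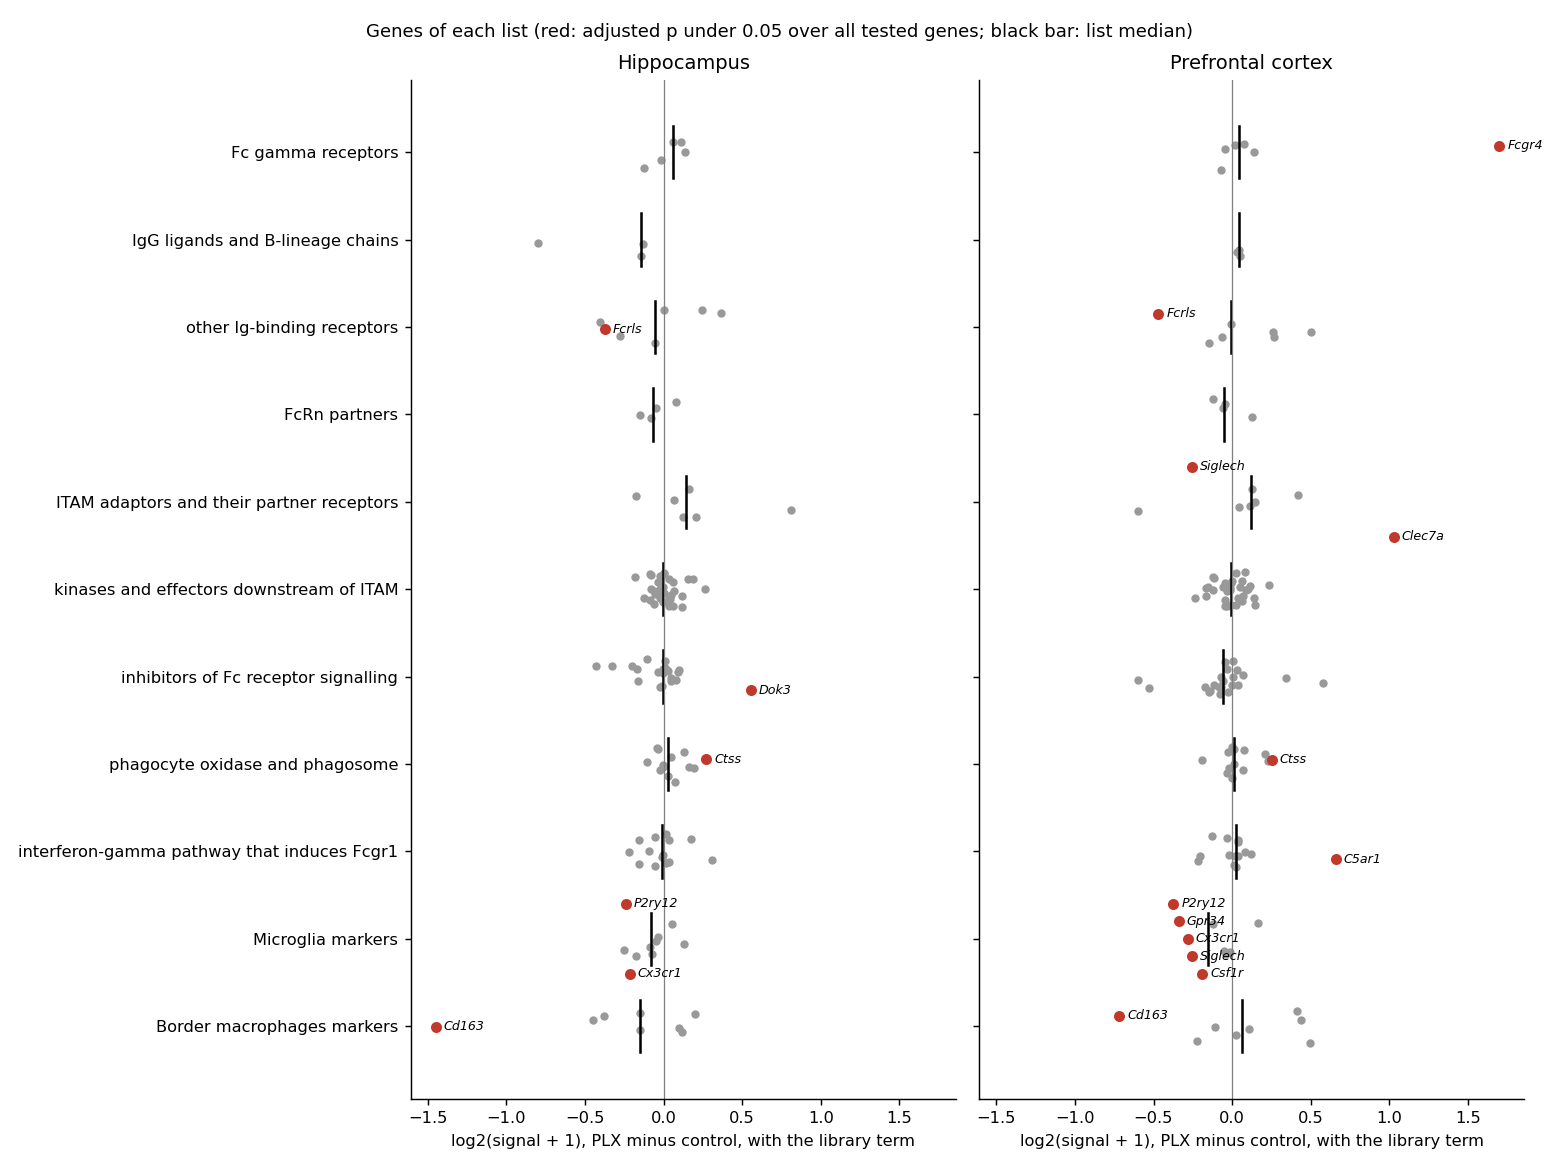
Averaged PLX minus control difference on the log2(signal + 1) scale, with the library term, for the genes of each list in hippocampus (left) and prefrontal cortex (right); red named points have an adjusted p under 0.05 over all tested genes and black bars are list medians. Fcgr4 in prefrontal cortex, at 1.70, is the highest point plotted, and most of the pathway's genes lie close to 0.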

How the data were processed

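mRNA was sequenced from hippocampus and prefrontal cortex with an Illumina stranded mRNA kit, per the labels' protocols. Reads were trimmed with Trimmomatic and aligned with STAR 2.6.1d to GRCm39 (mm39), per the submitters' processing notes; the counting tool is not named in these. The deposited signal values are read counts divided by 1 factor per library: whole reads were recovered for 100.0% of the values in all 96 libraries (tolerance 0.01), and the factors match median ratios within each tissue, so levels across tissues are set on separate scales. The signal of each gene is called normalised reads here.

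Signal was tested as log2(signal + 1) with limma 3.58.1 in R 4.3.3 (trended empirical Bayes), 8 groups in 1 model per tissue, on genes that reached 10 normalised reads in 5 libraries or more (19938 genes in hippocampus, 19841 in prefrontal cortex, 20620 in the joint fit), with Benjamini-Hochberg adjustment over all tested genes at 0.05. The joint fit took the sample label as a block (correlation 0.376). edgeR 4.0.16 and DESeq2 1.42.0 were run on the recovered counts as alternatives, beside pseudocounts of 5 and 0.5, no filter, a replicate block, the library term and leaving out each library. Libraries that stand apart were found by 2-means clustering of the share of reads on ribosomal protein and oxidative phosphorylation genes. Exon lengths are from GENCODE vM21 (GRCm38). The test was also run on simulated counts that held no set of libraries standing apart, so that run does not bear on their confounding with PLX.

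The members and lists were chosen with earlier results of these data known. All 6 members are described. The genes that the text says rose or fell in a list are those that passed with the library term, and a few that passed only in the designed fit are named as such; genes like a member are the 5 with the highest mean correlation. Same-numbered samples did not deviate together (median correlation -0.004 in hippocampus and -0.003 in prefrontal cortex), so the numbers were not taken as pairs.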

Additional observations from a re-analysis of the deposited data

Results flagged for a closer look

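In 96 sets of 1 gene in 1 group, 5 had a library far from the others, a gap that chance gives in about 1 of 20 sets. Replicate 6 of MIA PLX females was the highest for Fcer1g in both tissues, at 143 normalised reads in hippocampus, where the next library had 112.7, and at 142.6 in prefrontal cortex, where the next had 111.5. The same label was also the highest for Fcgrt in prefrontal cortex, at 472.1 against a next value of 382.2. Replicate 3 of hippocampal MIA control males had 77.73 normalised reads of Fcgr2b, against 60.61 in the next library. All 4 of these values come from libraries that stand apart by their share of reads on ribosomal protein and oxidative phosphorylation genes. Replicate 5 of hippocampal MIA control females had 7.288 normalised reads of Fcgr4, against 2.824 in the next library, and lies outside that state.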

How the results depend on the processing

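The number of members called for PLX against control was 2 in hippocampus and 3 in prefrontal cortex. With the library term and without the libraries that stand apart it was 0 in hippocampus and 1 in prefrontal cortex, and it was 1 in prefrontal cortex when the term or the omission covered the 14 labels that stand apart in both tissues, settings chosen after seeing the data. For the tissue difference of the PLX effect it was 1 with a pseudocount of 5, against 0. Leaving out 1 library gave 2 to 3 in prefrontal cortex, 2 to 2 in hippocampus, 0 to 1 for MIA males (without MIA control male 2 or 5) and for saline males (without saline control male 6 or saline PLX male 5) in prefrontal cortex, and 0 to 1 for the tissue difference. The other 285 counts kept their value within 1.5 times; the cause of the changes was not tested.

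Signs changed in 27 values, of which prefrontal Fcer1g under PLX had been called. For PLX against control in hippocampus, Fcgr3 was -0.0025 by edgeR, -0.0013 by DESeq2 and -0.013 by edgeR without a filter, against 0.01, and Fcgr1 was 0.057 with the library term and 0.10 without the libraries that stand apart, against -0.06. In prefrontal cortex Fcgr3 was 0.14 with the term, 0.21 without, and 0.11 and 0.16 for the 14 labels, against -0.01, and Fcer1g was 0.021 and 0.013, against -0.17. The Fcgr4 interaction in females was 0.017 by edgeR, 0.019 by DESeq2 and 0.021 by edgeR without a filter, against -0.09, and in males -0.65 without the libraries that stand apart and -0.12 without the 14 labels, against 0.47. Its female minus male PLX effect was 0.097 without the 14 labels, against -0.20. For MIA in prefrontal cortex, values without the libraries that stand apart were 0.0065 for Fcgr2b, 0.054 for Fcgr4 and 0.077 for Fcer1g, and without the 14 labels 0.0082 for Fcgr2b and 0.027 for Fcer1g. For sex they were -0.022 for Fcgr2b and -0.015 for Fcgrt in prefrontal cortex, -0.020 for Fcgr2b without the 14 labels, and -0.049 for Fcgr2b in hippocampus. The tissue level of Fcer1g was 0.0062 with the term.

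Leaving out 1 library gave ranges across 0 for 7 values: the tissue level of Fcer1g (-0.015 to 0.0065), the tissue difference of Fcgr3 (-0.00027 to 0.039), PLX on Fcgr3 in hippocampus (-0.014 to 0.042) and prefrontal cortex (-0.030 to 0.024), sex on Fcgr2b in hippocampus (-0.0016 to 0.054), MIA on Fcgr1 in prefrontal cortex (-0.038 to 0.015) and the female interaction of Fcgr4 (-0.41 to 0.298). The rise of prefrontal Fcgr4 was called in all 48 such fits, between 1.48 and 1.63. A replicate block changed no call: it gave 2 members in hippocampus and 3 in prefrontal cortex, with 1.59 for prefrontal Fcgr4.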

Other observations

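The ligand side of the family was sparse. Of 15 immunoglobulin chains, B-lineage genes and pentraxins, 10 had no row in the table used here. Ighg2c, the heavy chain of an IgG2 subclass that binds Fcgr4, had a median of 4.97 normalised reads in PLX hippocampus and 3.86 in control hippocampus, and of 109.4 in PLX and 109.2 in control prefrontal cortex. Ighm, the heavy chain of IgM, had a median of 207.8 normalised reads in hippocampus and 643.6 in prefrontal cortex. Both had higher medians in prefrontal cortex, on scales set within each tissue. The remaining genes of the list with a row had low medians in both tissues. In hippocampus and prefrontal cortex these were 4.801 and 5.083 for Ighd and 1.049 and 3.373 for the light chain Igkc. Jchain went the other way, with 12.74 and 11.75. Whether immunoglobulin was made in the tissue was not tested.

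Of 5 dendritic cell markers, 3 had a row, Cd209a, Flt3 and Zbtb46, and they did not move together. The lectin Cd209a fell in both tissues, with log2 differences under the library term of -1.51 in hippocampus (adjusted p = 0.00157) and -1.02 in prefrontal cortex (adjusted p = 0.00485). Its median was 2.04 normalised reads under PLX and 6.56 in controls in hippocampus, and 5.79 and 16.3 in prefrontal cortex. Medians of Flt3 went the other way, with 332.2 under PLX and 284.0 in controls in hippocampus, and 199.3 and 178.4 in prefrontal cortex. Those of Zbtb46 were 254.4 and 256.0 in hippocampus, and 410.8 and 427.3 in prefrontal cortex.

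In hippocampus, where Fcgr4 lay below the filter, the unfiltered interaction of MIA and PLX in males was -1.77 (95% interval -3.4 to -0.141, adjusted p = 1), and edgeR gave -2.11 (adjusted p = 1). The MIA PLX males had 11 reads in all and the saline PLX males 33.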
